A study of Mus musculus with 6 samples.

Results

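The transcripts of 10 genes that are used to recognise or sort cancer-associated fibroblasts (CAFs) were followed in RNA-seq of PDPN+PDGFRα+ cells from mouse melanomas. The genes were taken by name, as Pdpn, Fap, Thy1, Cd9, Cd63, Vcam1, Icam1, S100a4, Vim and Ncam1, and all 10 were found among the 53801 genes of the deposited table. The rule that took them uses names and no measured value. The tumors were MO5, a B16 mouse melanoma line that carries ovalbumin, grown under the skin of adult C57BL/6 mice. Both groups of mice received diphtheria toxin (DT). The DTR group (genotype DTR+, n = 3 libraries) was ADAM12-DTR transgenic mice, which make the DT receptor from the Adam12 promoter, so that DT kills cells in which that promoter is active. The Ctrl group (genotype DTR-, n = 3 libraries) was non-transgenic littermates, in which DT has no transgenic target. CD45-CD31- cells with PDPN and PDGFRα on their surface were sorted from the tumors, and the comparison asks how the cells that carry these CAF markers differ once ADAM12+ cells have been depleted. The depleted cells are themselves part of the PDPN+PDGFRα+ gate in Ctrl mice.

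CAFs are the connective-tissue cells of a tumor, and no single surface protein marks all of them. PDPN, FAP and THY1 are membrane glycoproteins found on many fibroblasts, CD9 and CD63 are tetraspanins that organise membrane and vesicle proteins, and VCAM1, ICAM1 and NCAM1 are adhesion molecules of the immunoglobulin superfamily. S100A4, also named fibroblast-specific protein, is a small calcium-binding protein, and vimentin is the intermediate filament of mesenchymal cells. Several of these markers are shared with other cells: vimentin and CD63 are also made by melanoma cells, S100A4 by macrophages and T cells, VCAM1 and ICAM1 by endothelium and THY1 by mouse T cells.

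The libraries held 22339635 to 34271929 reads counted on genes. Values are given as CPM, the counts of a gene scaled to its library's total and edgeR's TMM factor. A floor of 3 counts equals 0.0872 to 0.132 CPM in these libraries and covers counting error only. The labels do not say that replicates came from separate mice, so p-values measure only the spread between these libraries, which may be technical. The sorted identity was checked against marker lists. All 12 fibroblast genes were detected in the mean at 1 CPM or more, with a summed level of 5623 to 14640 CPM in Ctrl and 6108 to 14910 CPM in DTR. All 12 melanoma genes were detected as well, and their summed level, 17630 to 20690 CPM in Ctrl and 16510 to 19500 CPM in DTR, exceeded that of the fibroblast genes in every library. Summed macrophage genes lay between 119 and 205 CPM, T and NK cell genes between 8.16 and 50.1 CPM and pericyte genes between 38.0 and 74.6 CPM. Of the pericyte sum, Mcam alone gave 27.8 to 49.7 CPM. Endothelial genes summed to 27.7 to 34.9 CPM in Ctrl and 34.4 to 102 CPM in DTR. In DTR replicate 3, the highest, Tek gave 62.8 CPM, Vwf 21.3, Kdr 11.98 and Esam 1.19, each the highest value of the gene. Of the other 2 tested genes, Pecam1, which encodes the CD31 that the sort gated out, had 4.01 CPM there and Cdh5 had 0 counts. The genes Tie1, Emcn, Egfl7 and Erg stayed at or under 0.290 CPM in all libraries. Schwann cell genes summed to 194 to 248 CPM, skeletal muscle genes to 2.80 to 5.75 CPM, neutrophil genes to 1.13 to 7.67 CPM and keratinocyte genes to 0.457 to 1.89 CPM. Higd1b (pericyte), Pmp2 (Schwann cell), Krt1 (keratinocyte), Myh4 (muscle), Ly6g and Camp (neutrophil) had 0 counts in all 6 libraries. The groups overlapped in the summed level of every list, and what these other cells contributed to the marker transcripts was not tested.

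The RefSeq table of promoter windows on GRCm38.p6 holds 6 of the 10 genes, Pdpn, Cd9, Cd63, Icam1, S100a4 and Vim. Fap, Thy1, Vcam1 and Ncam1 have no entry. The 250 bases before the start are shown for Pdpn, Icam1 and S100a4, because these were the genes with a window that had their highest level in the same library, DTR replicate 3 (values follow). Capitals mark matches on either strand to 4 motifs, GGAANTTCC for NF-kB, TGANTCA for AP-1, GGGCGG for the GC box and TATAAA for the TATA box. No match shown overlaps another.
Pdpn: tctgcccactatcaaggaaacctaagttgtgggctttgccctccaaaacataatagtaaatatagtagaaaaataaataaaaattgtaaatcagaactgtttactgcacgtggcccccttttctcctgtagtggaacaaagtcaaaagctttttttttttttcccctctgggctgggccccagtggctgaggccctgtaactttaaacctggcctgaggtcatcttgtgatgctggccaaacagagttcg
Icam1: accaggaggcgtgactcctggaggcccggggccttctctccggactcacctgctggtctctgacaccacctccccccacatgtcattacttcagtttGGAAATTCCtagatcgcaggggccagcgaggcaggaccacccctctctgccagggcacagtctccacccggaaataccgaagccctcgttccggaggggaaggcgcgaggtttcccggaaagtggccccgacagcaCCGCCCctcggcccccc
S100a4: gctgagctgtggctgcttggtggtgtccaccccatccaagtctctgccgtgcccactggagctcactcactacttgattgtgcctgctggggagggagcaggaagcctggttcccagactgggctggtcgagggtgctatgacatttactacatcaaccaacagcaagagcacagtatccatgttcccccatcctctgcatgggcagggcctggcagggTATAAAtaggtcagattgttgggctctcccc
The Pdpn window is chr4:143299565-143299814 on the minus strand, the Icam1 window chr9:21015690-21015939 on the plus strand and the S100a4 window chr3:90603520-90603769 on the plus strand. Icam1 held the NF-kB letters, beginning 153 bases before the start, and a GC box on the opposite strand, beginning 17 bases before it. The NF-kB letters occur in 0.813% and the GC box in 32.7% of all 32851 windows of this length. S100a4 held a TATA box 31 bases before the start, as did Vim at 32 bases, against 12.4% of all windows. Cd9 had 2 GC boxes, the Pdpn and Cd63 windows held none of the 4 motifs, and AP-1 letters, present in 6.75% of all windows, were in none of the 6. A match describes the letters in the window and was not tested as a binding site.

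None of the 10 marker transcripts passed the test for a difference between DTR and Ctrl. In the quasi-likelihood test of edgeR, with p adjusted over 15133 genes by Benjamini and Hochberg's method, 0 of 10 stayed under 0.05, where 0.0% of all genes tested did, and 0 of 10 had an unadjusted p under 0.05, against 7.92% of all genes. DESeq2's Wald test also called 0 of 10, against 0.152% of the genes with an adjusted p. At an unadjusted p under 0.05 DESeq2 gave 1 of 10, Fap, against 4.89% of the genes with a p. The log2 fold changes, DTR over Ctrl, were above 0 for 6 genes and below 0 for 4, with a median of 0.18, beside a median of -0.003 over all genes tested. The groups did not overlap for 1 of 10 genes, Vim, which was lower in DTR. Over all genes tested, 8.19% did not overlap with DTR lower and 6.3% with DTR higher. In a bulk sample, fewer cells of a type and less RNA per cell cannot be told apart, for these genes as for the lists above.

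**Figure D1:**
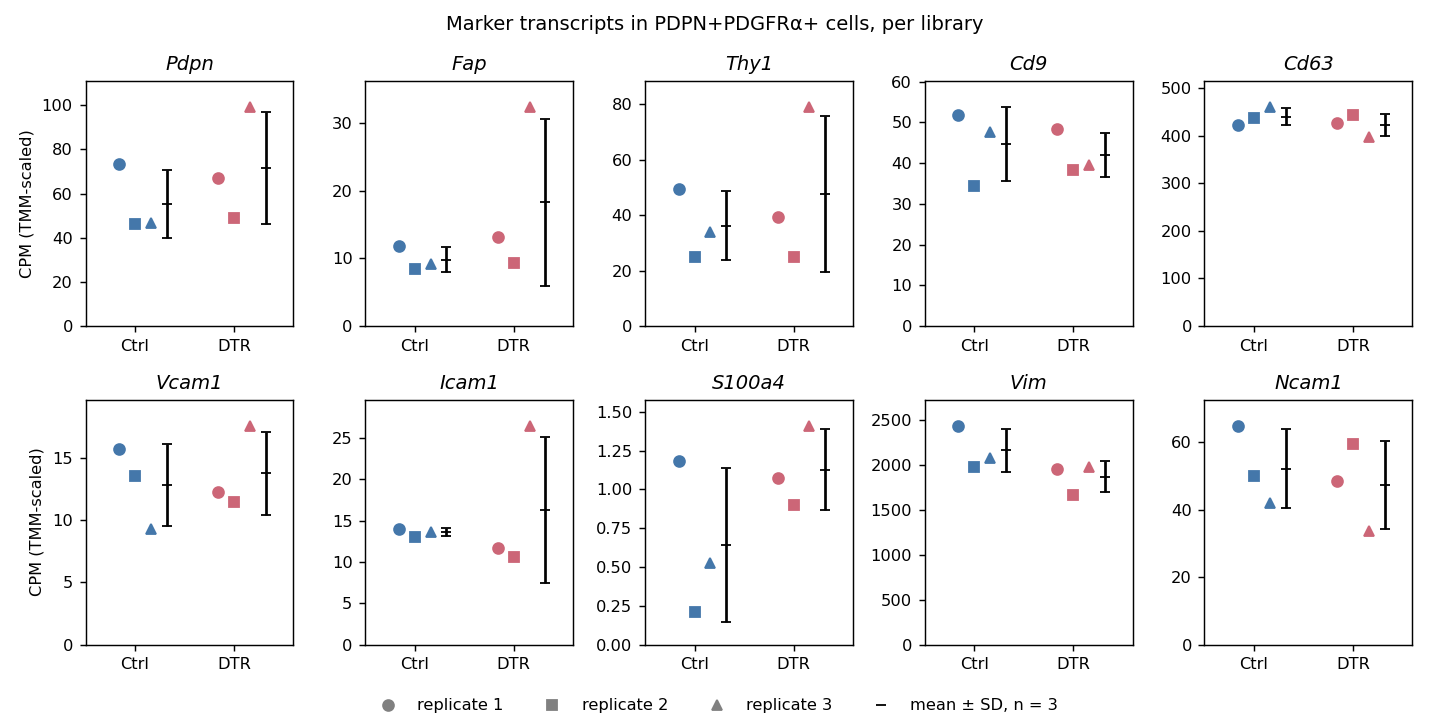
CPM of each marker gene (vertical axes, TMM-scaled, from 0) in the 3 Ctrl and 3 DTR libraries, with symbols for the replicate number and black bars for the mean ± SD (n = 3). DTR replicate 3 (triangle, right) is the highest library for 6 genes, among them Fap at 32.3 CPM, and the groups overlap for every gene except Vim.

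Podoplanin, FAP and THY1 are the glycoproteins by which fibroblasts are most often sorted. Pdpn (ENSMUSG00000028583, chr4:143267431-143299564, minus strand of GRCm38) encodes the mucin-like ligand of the platelet receptor CLEC-2 and was itself a sorting marker here. It was counted at 73.2, 46.0 and 46.8 CPM in Ctrl replicates 1 to 3 and at 67.2, 48.9 and 99.0 CPM in DTR replicates 1 to 3. One DTR library lay above all Ctrl libraries and the other two lay within the Ctrl range. The log2 fold change was 0.37 (SE 0.275, 95% interval -0.26 to 1.01, adjusted p = 0.730, edgeR quasi-likelihood). It ran from 0.07 without DTR replicate 3 to 0.63 without Ctrl replicate 1.

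Fap (ENSMUSG00000000392, chr2:62500943-62574075, minus strand) encodes a membrane serine protease of reactive fibroblasts. Its Ctrl libraries had 11.9, 8.37 and 9.20 CPM and its DTR libraries 13.2, 9.36 and 32.3 CPM. DTR replicates 1 and 3 were above the highest Ctrl library, and replicate 2 was inside the Ctrl range. Fap had the highest log2 fold change of the 10 genes in this fit, 0.89 (SE 0.425, 95% interval -0.09 to 1.87, adjusted p = 0.640 in edgeR and 0.555 in DESeq2, unadjusted p = 0.0144 in DESeq2). Without DTR replicate 3 the value was 0.20. That library held 3.11 times the mean of the other five.

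Thy1 (ENSMUSG00000032011, chr9:44043384-44048579, plus strand) encodes the GPI-anchored glycoprotein CD90. It was counted at 49.6, 25.0 and 34.1 CPM in Ctrl and at 39.2, 24.7 and 79.0 CPM in DTR. DTR held both the lowest and the highest library of this gene. The log2 fold change of 0.39 (SE 0.412, adjusted p = 0.812, edgeR) turned to -0.18 without DTR replicate 3. The summed T and NK cell genes were between 8.16 and 50.1 CPM in Ctrl, highest in replicate 2, and between 11.9 and 23.97 CPM in DTR, highest in replicate 3, and their part in the Thy1 values was not tested. The second sorting marker, Pdgfra, which encodes the alpha receptor for platelet-derived growth factor, was likewise highest in DTR replicate 3, with 125, 42.6 and 62.9 CPM in Ctrl and 96.6, 54.0 and 132 CPM in DTR. Its log2 fold change was 0.29 (adjusted p = 0.862, edgeR), and it ran from -0.03 without DTR replicate 3 to 0.83 without Ctrl replicate 1. Neither transcript used for the sort was shown to differ. Adam12, the gene whose promoter drives the receptor for DT, had 175 to 216 CPM in Ctrl and 112 to 165 CPM in DTR, with every DTR library below every Ctrl library (log2 fold change -0.42, adjusted p = 0.602, edgeR). The log2 fold change of Adam12 ran from -0.52 without DTR replicate 1 to -0.27 without DTR replicate 3.

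The tetraspanin transcripts had the smallest log2 fold changes of the 10 in absolute size in the edgeR fit above. With an offset for gene span, Vcam1 (0.05) was smaller than both. Cd9 (ENSMUSG00000030342, chr6:125460266-125494791, minus strand) encodes a partner of integrins and of immunoglobulin-superfamily proteins at the cell surface. It had 51.7, 34.4 and 47.7 CPM in Ctrl and 48.3, 38.3 and 39.6 CPM in DTR. All DTR libraries lay within the Ctrl range, and the log2 fold change was -0.09 (SE 0.170, adjusted p = 0.909, edgeR). Of its exon bases, 10.7% lie opposite Gm26728, which had at most 21 counts in a library, and the counting used strand.

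Cd63 (ENSMUSG00000025351, chr10:128900989-128912822, plus strand) encodes a tetraspanin of lysosomes and exosomes, known also as a melanoma antigen. It was counted at 423, 439 and 460 CPM in Ctrl and 427, 444 and 397 CPM in DTR, a span of 1.16-fold over the 6 libraries. Only 3.13% of the genes tested with a count in every library had a smaller SD of log2 CPM over the 6 libraries. The fold change of DTR over Ctrl was 0.960, with a 95% interval of 0.839 to 1.10 (adjusted p = 0.861, edgeR). Its pseudogene Cd63-ps, the gene that shares most of the 11% of its 50-base words found elsewhere, had 0 counts in every library.

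Among the adhesion molecules, Vcam1 and Icam1 encode the inducible pair that leukocyte integrins bind. Vcam1 (ENSMUSG00000027962, chr3:116109949-116129688, minus strand), whose product binds the integrin α4β1, had 15.8, 13.6 and 9.27 CPM in Ctrl and 12.3, 11.5 and 17.6 CPM in DTR. The spread was much alike in both groups, with a coefficient of variation of 25.6% in Ctrl and 24.1% in DTR. The groups overlapped, and the log2 fold change of 0.10 (SE 0.244, adjusted p = 0.931, edgeR) went to -0.11 without DTR replicate 3 and to -0.09 without Ctrl replicate 3. Icam1 (ENSMUSG00000037405, chr9:21015985-21028817, plus strand), whose product binds the β2 integrins LFA-1 and Mac-1, had 14.03, 13.05 and 13.62 CPM in Ctrl and 11.7, 10.6 and 26.5 CPM in DTR. The Ctrl libraries were nearly equal, with a coefficient of variation of 3.63%, while it was 54.5% in DTR. DTR replicates 1 and 2 were below the lowest Ctrl library and replicate 3 was above the highest. The log2 fold change was 0.26 (SE 0.330, adjusted p = 0.848, edgeR) with all libraries and -0.28 without DTR replicate 3. In that library 4 of the 6 tested endothelial genes, Tek, Vwf, Kdr and Esam, were also at their highest, Pecam1, at 4.01 CPM, was within its range of 2.61 to 8.02 CPM in the other five, and Cdh5 had 0 counts. The part of endothelial transcripts in the Icam1 and Vcam1 values was not tested. Ncam1 (ENSMUSG00000039542, chr9:49502136-49798925, minus strand) encodes the neural cell adhesion molecule CD56. Its Ctrl libraries had 65.0, 49.9 and 41.9 CPM and its DTR libraries 48.6, 59.7 and 33.7 CPM. Here DTR replicate 3 was the lowest of the 6, the opposite of the other adhesion genes, and the log2 fold change was -0.14 (SE 0.229, adjusted p = 0.882, edgeR), or -0.36 with an offset for gene span. Gm47079 and Gm11149, which lie opposite 11.7% of the exon bases of Icam1 and 4.81% of those of Ncam1, had at most 9 and 7 counts in a library.

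The other markers, S100a4 and Vim, act inside the cell. S100a4 (ENSMUSG00000001020, chr3:90603771-90606045, plus strand) had 29, 5 and 15 counts in Ctrl and 37, 28 and 32 counts in DTR, which are 1.18, 0.209 and 0.527 CPM and 1.08, 0.901 and 1.41 CPM. The 5 counts of Ctrl replicate 2 are close to the floor of 3. The log2 fold change was 0.81 with a wide 95% interval of -0.66 to 2.28 (adjusted p = 0.748, edgeR), which reached 0.40 to 1.59 over the fits with 1 library left out. Of the 584 exon bases of S100a4, 51.7% are shared on the same strand with Gm42674, which had 0 counts in all 6 libraries. How the authors' counting treated reads in both genes is not given in the sources used here, so the S100a4 counts may leave such reads out and its level is uncertain. S100a6, its close neighbour in the S100 cluster, which was picked after its values were seen, had 33.1 to 80.0 CPM.

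Vim (ENSMUSG00000026728, chr2:13573927-13582826, plus strand) had 2438, 1984 and 2074 CPM in Ctrl and 1955, 1671 and 1981 CPM in DTR. The lowest Ctrl library, at 1984 CPM, and the highest DTR library, at 1981 CPM, were barely apart, and this separation was lost when DESeq2-type size factors, or only the library size, set the scale. The log2 fold change was -0.21 (SE 0.118, adjusted p = 0.662, edgeR) and ranged from -0.27 to -0.12 when any 1 library was dropped. The fold change was 0.863 with a 95% interval of 0.715 to 1.04. A two-sided exact permutation test of Vim gave p = 0.1, the smallest p that 3 against 3 libraries can give, and over the other 9 genes exact p ran from 0.2 to 1.0.

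**Figure D2:**
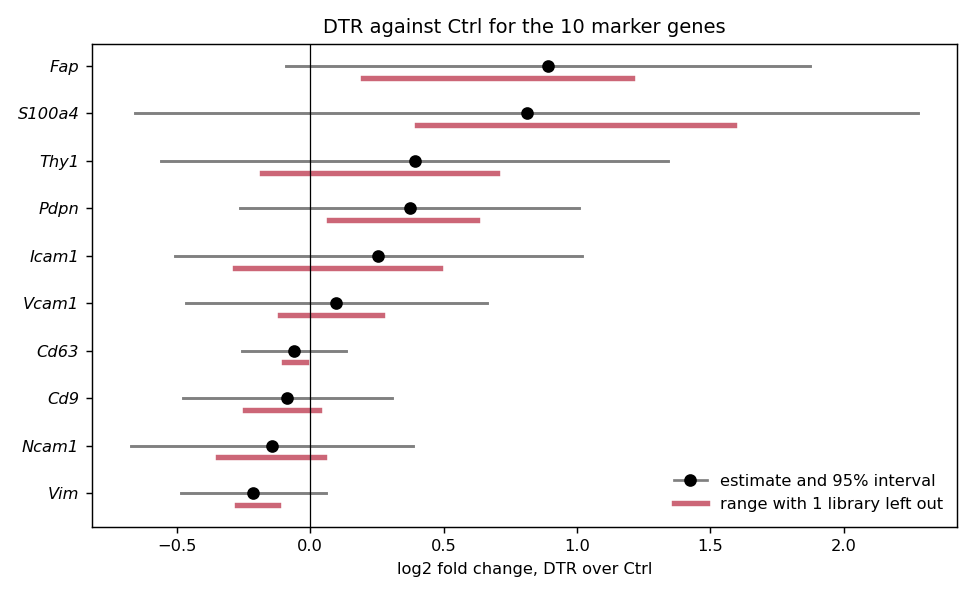
Log2 fold change of DTR over Ctrl (horizontal axis) for the 10 genes, with the edgeR estimate (point), its 95% interval (grey line) and the range of estimates when 1 of the 6 libraries was left out (red line). Every 95% interval includes 0, and the red line crosses 0 for Thy1, Icam1, Vcam1, Cd9 and Ncam1.

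Levels of different genes were compared as CPM per kb of exon, using the union of annotated exons, as a mean ± SD over the 6 libraries. Summed melanoma genes exceeded fibroblast genes in every library, so the order is that of the whole sample. Which cells gave each transcript was not tested. Vim was the most abundant marker at 425 ± 52.2 CPM per kb (SD, n = 6), which was rank 27 of 21967 protein-coding genes, and Cd63 had rank 189 at 117 ± 5.80 (SD, n = 6). Pdpn followed at 35.0 ± 11.5 CPM per kb (SD, n = 6), ahead of Cd9 at 21.2 ± 3.35 (SD, n = 6) and Thy1 at 14 ± 6.81 (SD, n = 6). Ncam1 stood at 5.75 ± 1.32 CPM per kb, Icam1 at 3.42 ± 1.33, Fap at 2.48 ± 1.61, S100a4 at 1.51 ± 0.760 and Vcam1 at 1.501 ± 0.338 (SD, n = 6 each). Ncam1, Icam1, Vcam1, Fap and S100a4 thus formed the lower end of the order. The steps from Vim to Cd63, from Cd63 to Pdpn, from Pdpn to Cd9 and from Thy1 to Ncam1 were free of overlap between libraries. The other 5 pairs of neighbours overlapped in range, although Icam1 was above Fap and Fap above S100a4 within each of the 6 libraries. S100a4 exceeded Vcam1 in 4 of 6 libraries only. Pdpn and Cd9, and S100a4 and Vcam1, changed places when the longest annotated transcript set the length, and 6 pairs of neighbours then overlapped. S100a4 also came after Vcam1 in 4 of the 6 orders made with 1 library left out. Over the 282 exon bases that S100a4 does not share, its level would be 3.13 ± 1.57 CPM per kb (SD, n = 6) if no read on the shared bases was counted.

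**Figure D3:**
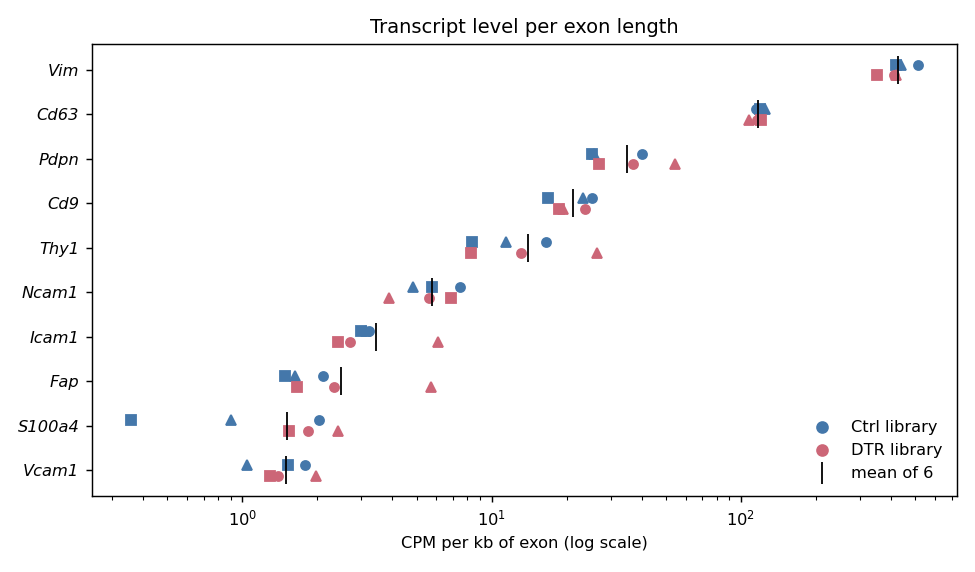
Level of each marker transcript in CPM per kb of exon (horizontal axis, log scale) in each Ctrl (blue) and DTR (red) library, with circles, squares and triangles for replicates 1, 2 and 3 and a black line for the mean of 6. Means run from 425 for Vim to 1.501 for Vcam1, and the ranges of neighbouring genes overlap in 5 of 9 steps.

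The markers also differed between the libraries of a group, in more than 1 pattern. DTR replicate 3 was the highest of the 6 libraries for Pdpn, Fap, Thy1, Vcam1, Icam1 and S100a4, 6 of 10 genes, where it was the highest for 20.9% of all genes tested. It was the lowest library for Cd63 and Ncam1. Ctrl replicate 2 was the lowest for 4 genes, Pdpn, Fap, Cd9 and S100a4. Relative to the mean of the other five libraries, DTR replicate 3 held 3.11 times as much Fap, 2.29 times as much Thy1, 2.10 times as much Icam1, 1.81 times as much S100a4, 1.76 times as much Pdpn and 1.41 times as much Vcam1, but 0.636 times as much Ncam1. The geometric mean of 11 fibroblast genes, Pdgfra left out, was likewise highest in DTR replicate 3 and lowest in Ctrl replicate 2, with 349, 136 and 180 CPM in Ctrl and 267, 179 and 401 CPM in DTR. Singly, 5 of these 11 genes were highest in DTR replicate 3 and 6 in Ctrl replicate 1, while 6 were lowest in Ctrl replicate 2 and 5 in Ctrl replicate 3. The geometric mean spanned 2.95-fold, and that of the 12 melanoma genes spanned 1.21-fold.

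**Figure D4:**
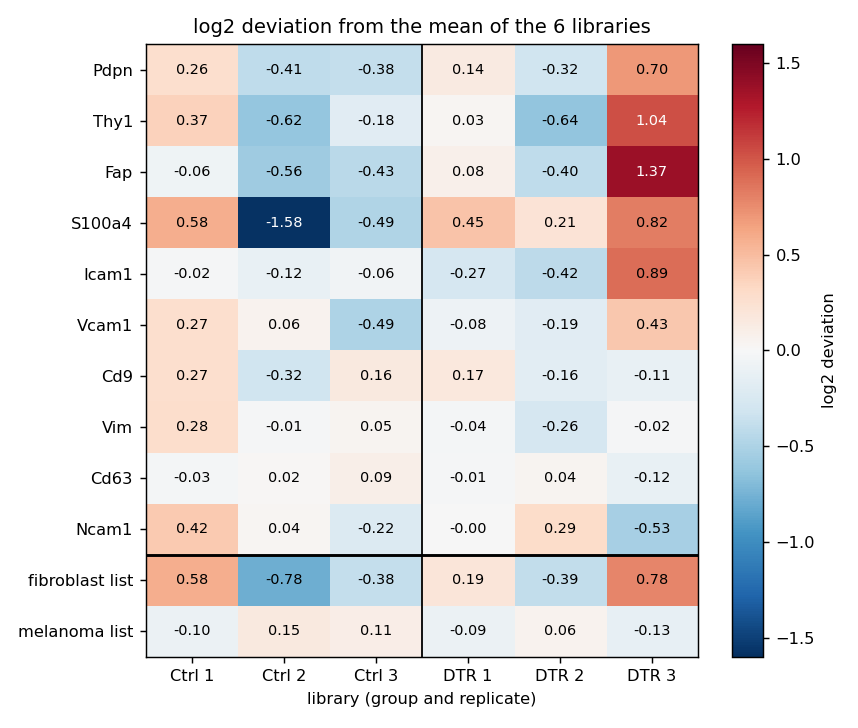
Log2 CPM of each marker gene in each library minus its mean over the 6 libraries, with the geometric means of the fibroblast and the melanoma list below the line. Fap, Thy1, Icam1, S100a4 and Pdpn are at their highest in DTR 3, as is the fibroblast list, while Cd63 and the melanoma list stay near 0, with spans of 1.16-fold and 1.21-fold.

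Dividing each marker by the geometric mean of the fibroblast genes in the same library gave a second scale for the spread between libraries. This reference itself spans 2.95-fold, so a gene that varies little in CPM widens on it, and a gene that varies much has more room to narrow. The SD of the log2 values over the 6 libraries narrowed from 0.445 to 0.225 for Pdpn and from 0.638 to 0.231 for Thy1. It narrowed from 0.720 to 0.409 for Fap and from 1.03 to 0.583 for S100a4. Among the 14881 genes tested that had a count in every library 11.1% narrowed, but these 4 of 10 include the markers with the largest SD in CPM, and nothing is read from the share. The SD widened for 6, least for Icam1, from 0.465 to 0.475, and most for Cd63, from 0.0721 to 0.674. Vim widened from 0.175 to 0.559, Cd9 from 0.232 to 0.538, Ncam1 from 0.343 to 0.767 and Vcam1 from 0.331 to 0.458. Against the melanoma genes, Cd63 had an SD of 0.0758 and Ncam1 one of 0.349, each close to the SD without a reference. On this scale Pdpn and Thy1 had the smallest SD and Ncam1 and Cd63 the largest. Pdpn is itself selected by the sort, and all points share their libraries, so these spreads are a description.

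**Figure D5:**
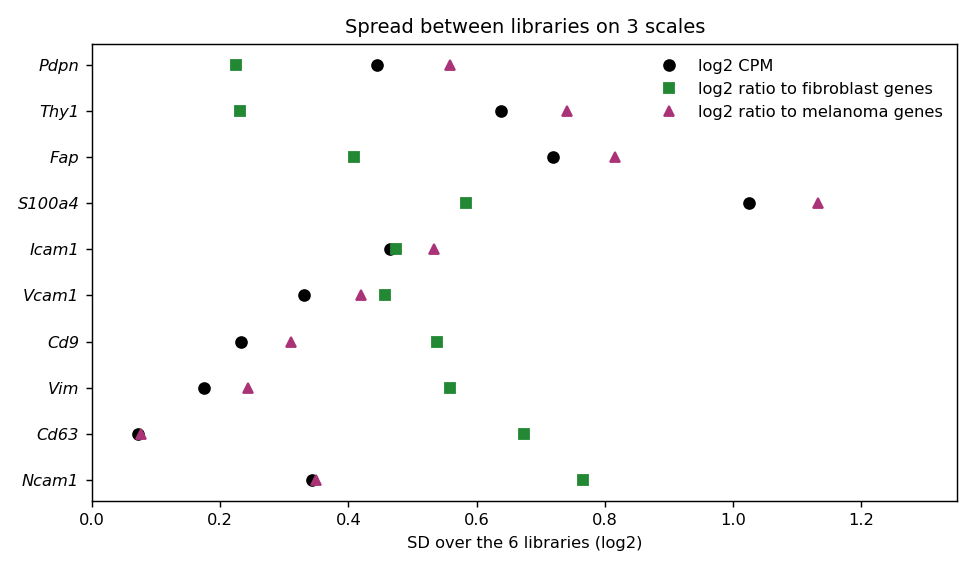
SD over the 6 libraries (horizontal axis, log2 scale) of each marker as CPM (circles), as a ratio to 11 fibroblast genes (squares) and as a ratio to 12 melanoma genes (triangles). The squares lie left of the circles for Pdpn, Thy1, Fap and S100a4 and right of them for the other 6, by the least for Icam1.

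On the scale of the ratio to fibroblast genes, the difference of DTR minus Ctrl (log2) was -0.60 for Vim, -0.55 for Ncam1, -0.46 for Cd9 and -0.45 for Cd63. It was -0.28 for Vcam1 and -0.26 for Icam1, both of which had positive log2 fold changes in CPM. The fibroblast reference had a higher mean log2 level in DTR than in Ctrl. Every gene is therefore lower on this scale than in log2 CPM, by the same amount, and the turned signs of Vcam1 and Icam1 include that shift. Pdpn and Thy1 were close to 0, at -0.04 and -0.10. Fap stood at 0.32 and S100a4 at 0.74. S100a4 was the one gene of 10 whose groups did not overlap on this scale, with all 3 DTR libraries higher, and a two-sided exact permutation test gave p = 0.1 for it, the smallest p possible. Over the 14881 genes tested with a count in every library, 1.07% were higher in DTR without overlap on this scale and 1.45% lower, and 1 gene of 10 with few counts is no result about the markers. That separation includes the Ctrl library with 5 counts, and it was lost with the sorting markers Pdpn and Pdgfra as the reference in place of the fibroblast genes.

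For each marker the genes with the most similar pattern over the 6 libraries were taken among 8791 genes with a mean of 10 CPM or more, by the root mean square difference of centred log2 CPM. Pdpn was nearest to Lamc1, a laminin chain, at 0.0732, and to Uap1 at 0.0761. Fap was nearest to Osr1, a transcription factor of connective tissue, at 0.0568 and to Nhsl1 at 0.0619, and Thy1 to Plau, which encodes urokinase, at 0.0977 and to Ier5 at 0.109. A value of 0 would mean that both genes deviate from their means by the same amount in every library. Icam1 was nearest to Rgma at 0.149 and to Birc3, an inhibitor of apoptosis and NF-kB target, at 0.150, and Vcam1 to Fcgrt, which encodes the neonatal Fc receptor, at 0.0869 and to Dbn1 at 0.104. S100a4 had no close match, the nearest being Epb41l3 at 0.228. Ncam1 was nearest to Tgfbi at 0.101 and to Tead2 at 0.109. Cd9 had Tmed1 and Haus7, Cd63 had Atp6v1c1, a subunit of the vacuolar proton pump, and Ppp1r8, and Vim had Soga1 and Dnaaf5, all at 0.0509 or less. Among the markers themselves the closest pairs were Cd9 with Vim at 0.166 and Cd63 with Vim at 0.184, Pdpn with Thy1 came to 0.233, and Fap and Ncam1 were farthest apart at 0.890. Steady genes lie close to one another by this measure, whatever else they share.

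The partners and relatives of the markers were taken from 10 lists holding 139 genes, of which 116 passed the filter on low counts. None was called by edgeR or by DESeq2, and the lowest adjusted p in edgeR was 0.602. In edgeR 9 of the 116, or 7.76%, had an unadjusted p under 0.05, close to the 7.92% of all genes tested, and 1 of these, Dpp4, was higher in DTR. The groups did not overlap for 3 genes that were higher (2.59%) and 10 that were lower (8.62%) in DTR, beside 6.3% and 8.19% of all genes tested. The median log2 fold change was 0.04.

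Of 19 other CAF surface markers tested, 13 had a log2 fold change above 0 (median 0.29), from Cspg4, a proteoglycan of pericytes, at -1.02 to Dpp4, the protease CD26, at 1.51. Dpp4 had 44.7, 21.5 and 33.3 CPM in Ctrl and 62.4, 29.6 and 191 CPM in DTR, so that DTR replicate 3 was again the highest library. Cspg4 was lower in every DTR library, 3.02 to 5.33 CPM against 5.82 to 12.3 CPM. The pericyte list, which holds Cspg4, summed to 47.8 to 74.6 CPM in Ctrl and 38.0 to 49.4 CPM in DTR. Of these sums Mcam alone gave 27.8 to 49.7 CPM, while Rgs5 had at most 1.06 CPM, Kcnj8 at most 0.653 and Higd1b 0. The sum is thus mostly 1 gene. Of 5 tested genes of the list 1 was above 0 (median -0.73), and the part of pericytes in the Cspg4 values was not tested. Among 7 tested relatives of FAP, 2 were above 0, and Dpp6, which had 0.193 to 2.12 CPM, was lowest at -0.79. Of 6 tested podoplanin partners 1 was above 0, Cd44, the hyaluronan receptor, at 0.01. Ezr, which encodes the linker ezrin between membrane proteins and actin, was lowest at -0.26 and was below Ctrl in every DTR library, with 99.4 to 108 CPM against 115 to 137 CPM.

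Tetraspanins other than Cd9 and Cd63 were split, with 9 of 21 tested above 0, from Cd82 at -0.43 to Tspan18 at 1.13. Tspan18 had only 0.351 to 1.83 CPM. Their 8 partners divided evenly, from Timp1, an inhibitor of metalloproteinases that binds CD63, at -0.62 to Ptgfrn, a partner of CD9, at 0.67. Of 9 tested partners of VCAM1 and ICAM1, 4 were above 0, from Itgb2, the β2 integrin chain of leukocytes, at -0.45 to Itgb7 at 0.20. Itgb2 had 36.1 to 46.6 CPM in Ctrl and 25.6 to 33.2 CPM in DTR without overlap. Of the leukocyte lists, the T and NK cell genes had 0 of 8 log2 fold changes above 0 (median -0.66) and the macrophage genes 4 of 11 (median -0.10), none called, and their part in the Itgb2 values was not tested. The immunoglobulin-superfamily list had 15 of 21 genes above 0, from F11r, which encodes a junctional adhesion molecule and had 0.220 to 1.10 CPM, at -0.49 to Cadm3 at 1.41. Cadm3 had 5.27 to 19.1 CPM in Ctrl and 19.7, 7.62 and 65.0 CPM in DTR.

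NF-kB targets were chosen because VCAM1 and ICAM1 are induced by that pathway. Of 14 tested, 11 were above 0 with a median of 0.22, from the chemokine Ccl2 at -0.38 to the cytokine Il6 at 0.89. Il6 had 24.7, 5.31 and 8.53 CPM in Ctrl and 20.3, 8.98 and 42.3 CPM in DTR, with DTR replicate 3 the highest and Ctrl replicate 1 next. Of 8 tested S100 genes 7 were above 0 (median 0.24), from S100b, which is also a Schwann cell and melanocyte gene, at -0.17 to S100a11 at 0.51. Of 11 tested intermediate filament genes 2 were above 0 (median -0.23), from Nes, which encodes nestin, at -0.70 to Prph, which encodes peripherin, at 0.52. No gene named from these lists passed the adjusted threshold in edgeR.

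Many of these partner values rested on 1 library. Without DTR replicate 3 the log2 fold change fell to 0.47 for Dpp4, 0.24 for Cadm3, 0.19 for Il6, 0.20 for Ptgfrn, 0.20 for S100a11 and 0.16 for Prph. Without Ctrl replicate 1 it became 0.76 for Dpp6, 0.32 for Ccl2, 0.30 for F11r and -0.08 for Itgb7, each with its sign turned, and -0.04 for Timp1 and -0.40 for Nes. S100b was at 0.04 without DTR replicate 1 and 0.01 without Ctrl replicate 2, Cd44 at -0.02 without Ctrl replicate 3 and Cd82 at -0.23 without Ctrl replicate 2. Cspg4, Ezr, Itgb2 and Tspan18 had ranges of -1.25 to -0.72, -0.32 to -0.20, -0.54 to -0.35 and 0.83 to 1.37. Their groups do not overlap in CPM, so a sign kept with 1 library left out was largely fixed in advance and adds no support. Among named genes whose groups overlap, Dpp4, Cadm3, Il6, Ptgfrn, S100a11, Prph, Timp1 and Nes kept their sign too.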

How the data were processed

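RNA-seq of 6 libraries, 3 per group by the sample titles, was used. The authors trimmed reads with cutadapt 3.4, aligned them to GRCm38 with STAR 2.7.3a and counted them per gene and strand with featureCounts 2.0.1. They deposited raw counts, which are the values used here. The deposited scores (counts divided by the authors' size factors and rounded), and the authors' comparison columns, deposited as fold, log2 and p-value columns with dispersion estimates, were not used.

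Genes were filtered with filterByExpr (minimum count 10, total 15), scaled with TMM and compared with edgeR's quasi-likelihood test, two-sided, with Benjamini-Hochberg adjustment over 15133 genes and a threshold of 0.05. Exact permutation tests used log2 CPM with a prior count of 2. Gene positions and exon lengths came from GENCODE M21 on GRCm38, and promoters from RefSeq. The members and lists were chosen with earlier results of these data known. Named genes are the 10 markers, Pdgfra, Adam12, the lowest and highest tested gene of each partner list, and the 2 genes most like each marker with a mean of at least 10 CPM, of which 1 is not reported here. S100a6 and genes that overlap a marker, share its sequence or stand in a marker list were named outside this rule. Alternatives were other scalings, filters, DESeq2, robust moderation, a replicate block, an offset for gene span and leaving out each library. Steps were tested on simulated data. Python 3.11.15 with matplotlib 3.10.9 and R 4.3.3 with DESeq2 1.42.0, edgeR 4.0.16 and limma 3.58.1 ran the steps.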

Additional observations from a re-analysis of the deposited data

How the results depend on the processing

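In 15 fits of all genes, 0 of the 10 markers and 0 of the partner genes were called, and the lowest adjusted p of a marker was 0.496, for Fap. The sign of each marker's log2 fold change was the same in 79 of 79 values from other scalings, filters, tools, the offset and the replicate block, and in 53 of 60 with 1 library left out. The size moved by over 1.5 times with the offset for gene span for Ncam1 (-0.36), Cd9 (-0.15) and Vcam1 (0.05). It also did so on unscaled library sizes for Cd63 (-0.03) and with the replicate block for Icam1 (0.13). S100a4 could not be tested where 10 counts were asked of each library. With 1 library left out, Thy1 ran from -0.18 to 0.70, Cd9 from -0.24 to 0.034, Vcam1 from -0.11 to 0.27, Icam1 from -0.28 to 0.49 and Ncam1 from -0.34 to 0.051. The negative values of Thy1 and Icam1 came without DTR replicate 3, those of Vcam1 (-0.11 and -0.09) without DTR replicate 3 or Ctrl replicate 3. The positive value of Cd9 (0.034) came without Ctrl replicate 1, and those of Ncam1 without Ctrl replicate 1 (0.045) or DTR replicate 3 (0.051).

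The count of markers whose groups did not overlap, 1 in the report, was 0 on DESeq2-type size factors, 0 on unscaled library sizes and 1 to 4 with a library left out. The 4 came without Ctrl replicate 1 (Pdpn, Fap and S100a4 higher, Vim lower), and there were 2 without DTR replicate 2 (Fap higher, Vim lower) or DTR replicate 3 (Icam1 and Vim lower). As a ratio to fibroblast genes the count of 1 was 0 with the sorting markers as reference, 0 with melanoma genes (a reference added after seeing the data), and 1 to 5 with a library left out. The 5 came without Ctrl replicate 1 (Cd9, Cd63, Icam1 and Vim lower, S100a4 higher), and there were 2 without DTR replicate 2 (Ncam1 lower, S100a4 higher). With 1 library left out, 23.1% to 28.9% of all genes tested did not overlap in CPM, 26.2% without Ctrl replicate 1, 24.1% without DTR replicate 2 and 23.2% without DTR replicate 3. As a ratio to fibroblast genes, 4.21% to 43.1% did not overlap, 43.1% without Ctrl replicate 1 and 10.1% without DTR replicate 2, so these counts of markers are read against a background that rises too. The filters, DESeq2, the robust fit, the block and the offset give no value of their own for this count. The overlapping neighbours in the order of levels, 5 in the report, were 2 to 5 with a library left out, 2 without DTR replicate 3, and 6 with the longest annotated transcript as length.

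With the replicate number as a replicate block, 0 markers were called, and Fap had a log2 fold change of 0.70, S100a4 of 1.05 and Icam1 of 0.13. The labels name no shared mouse or day, and the correlations of same-numbered libraries were 0.114, 0.132 and -0.042, so the numbers were not taken to pair the libraries. Depth limits S100a4 most, with 5 to 37 counts a library.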
